A study of Homo sapiens with 2 samples.

Results

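The 10 genes described here make, recycle and use glutathione: GCLC, GCLM, GSS, SLC7A11, GSR, NNT, GLRX, GPX1, GPX4 and GSTP1. They were chosen by their role, with the ratios of GCLM, NNT and GLRX on these same arrays already known, so the ratios below are a description. Of the 19775 genes with a probe set assigned to them alone, these 10 had 22 probe sets, 1 to 4 per gene. A probe set is a group of short probes that reads 1 stretch of a transcript, and its signal is given in arbitrary units.

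MEG-01 is an established megakaryoblastic line of chronic myeloid leukemia. The cells had been transduced with a control lentivirus for Venus, a yellow fluorescent protein, or with a lentivirus for GAS2DN, a truncated and dominant negative GAS2 driven by the spleen focus forming virus promoter. Fluorescent cells were sorted and no further agent is named for them. RNA of 3 extracts was pooled in equal amounts for each of the 2 arrays, 1 per group, from sorted populations and not from clones. A single array per group allowed no test, no error between cultures and no p-value, and in bulk RNA fewer cells of a type and less RNA per cell cannot be told apart.

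Of 10 megakaryocyte marker genes, 9 had a signal above the array median on each array. Their signals summed to 32839 for Venus and 33731 for GAS2DN over all 10, while single markers differed both ways: of 9 measured by the rule given further on, 7 were higher and 2 lower, with log2 ratios of GAS2DN to Venus from -0.61 to 0.87 and a median of 0.22. Markers of fibroblasts or HEK293T cells, the cells that usually package lentivirus, summed to 317 and 349 over 8 genes. Those of T cells, B cells and monocytes summed to 482 and 528 over 5 genes. Above the array median were 1 of these 8 genes for Venus and 2 for GAS2DN, and 2 of these 5, LYZ and CD79A, on each array. Within the first sum COL1A2 read 41.0 against 111 and COL3A1 42.1 against 1.86. Probe set 217430_x_at of COL1A1, not in the sum, read 284 against 402. The array median was 55.6 for Venus and 69.1 for GAS2DN. GAS2 itself was below it on both arrays, at 24.3 and 34.7 in its only probe set, whose place relative to the truncation is not given in the sources used here.

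Glutathione is a tripeptide of glutamate, cysteine and glycine and the main soluble thiol of the cytosol. Glutamate cysteine ligase, made of a catalytic subunit (GCLC) and a modifier subunit (GCLM), sets the pace of synthesis, and GSS adds glycine. Cysteine comes in as cystine through SLC7A11, glutathione peroxidases spend glutathione on peroxides, GSR restores it with NADPH, and glutaredoxins use it to release protein thiols. Many of these genes are known targets of NRF2, a transcription factor that binds antioxidant response elements.

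The core of such an element, TGACNNNGC, was sought on both strands from 250 bases before to 50 bases after gene starts in RefSeq (GRCh38.p14). Windows were found for 7 of the 10 genes, 10 windows in all, and GSS, SLC7A11 and GSR had none here. The core occurred in 2 of these 10 windows, those of GCLM and GSTP1, and in 13.3% of all 35116 windows. Both matches are shown because GCLM was lower upon GAS2DN in all its probe sets, whereas GSTP1 had the same signal on both arrays. Each sequence follows the gene's own strand ahead of its start, and the capitals mark the core, which in GCLM is read as the reverse complement. The first lies at chr1:93909446-93909474 on the minus strand, with its core 34 to 26 bases before the start. The second lies at chr11:67583736-67583764 on the plus strand, with its core 66 to 58 bases before the start. A match describes letters and is not a sign of binding, and a window without one says nothing of the sequence outside it.
GCLM: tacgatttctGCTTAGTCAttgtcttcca
GSTP1: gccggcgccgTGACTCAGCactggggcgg

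Within the synthesis pathway, the modifier subunit of the ligase had a lower signal upon GAS2DN in each of its 3 probe sets, by a ratio of GAS2DN to Venus between 0.190 and 0.556. The catalytic subunit and GSS stayed within 10% of equal in their bright probe sets. For GCLM, the brightest probe set, 203925_at, read 6157 for Venus and 3422 for GAS2DN (ratio 0.556). Probe set 234986_at read 2352 against 1195 (ratio 0.508), and 236140_at read 1992 against 378 (ratio 0.190). All 6 signals were above the array medians, and the probe sets shared the direction but not the size, with log2 ratios of -0.85, -0.98 and -2.40. The SD of the log2 ratio among probe sets of 1 gene, taken at the same brightness over all genes, was 0.417, 0.493 and 0.561 for these probe sets, and each difference was larger than its SD. This SD measures how far probe sets of a gene differ on these arrays and says nothing of the spread between cultures.
GCLC, which carries the active site of the ligase, read 2245 for Venus and 2054 for GAS2DN in 202923_s_at (ratio 0.915). In 202922_at the values were 1411 against 1458 (ratio 1.03). The dim 1555330_at of GCLC read 43.9 against 9.21 (ratio 0.210), with both signals below the array medians, where the SD among probe sets of a gene reached 2.08. GSS, the synthetase that completes the tripeptide, read 2636 on the Venus array against 2740 on the other in 201415_at (ratio 1.04) and 1363 against 1359.5 in 211630_s_at (ratio 0.998). The ratios of the 3 probe sets of GCLM thus did not overlap with those of the bright probe sets of its partner GCLC.

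**Figure D1:**
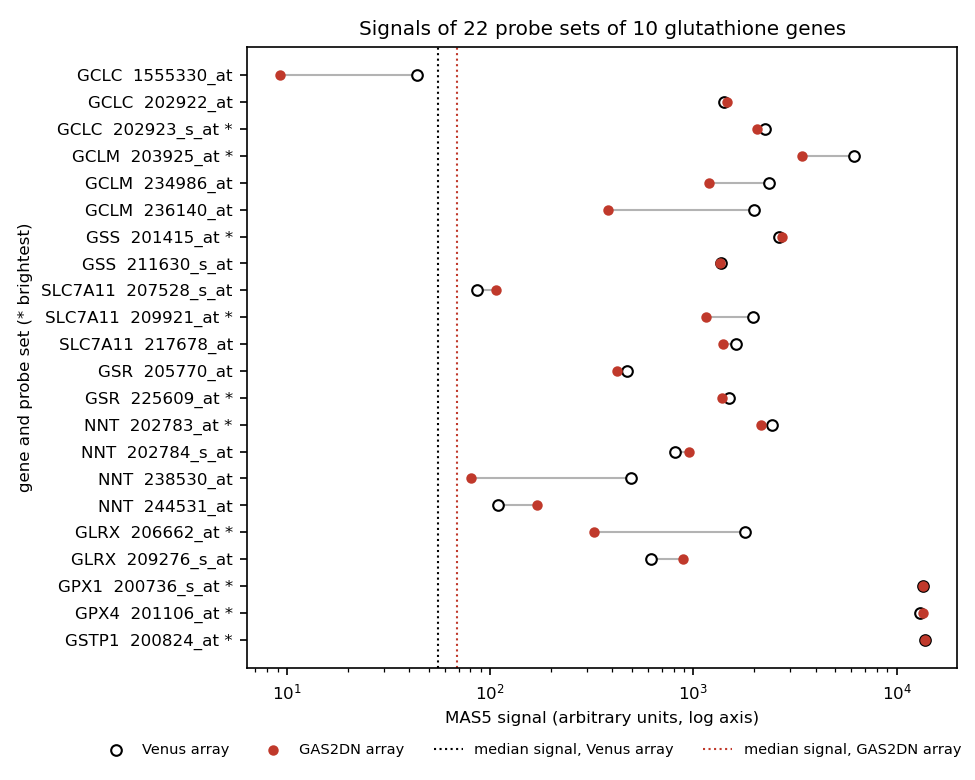
MAS5 signals (log axis, arbitrary units) of the 22 probe sets of the 10 genes for Venus and GAS2DN, with the median of each array as a dotted line. All 3 probe sets of GCLM lie to the left upon GAS2DN, whereas GLRX and NNT each have 1 probe set far to the left and at least 1 to the right of the Venus signal.

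The cystine carrier SLC7A11 was lower upon GAS2DN in its bright probe sets, by unequal amounts. Probe set 209921_at read 1971 for Venus and 1159 for GAS2DN (ratio 0.588), and its log2 ratio of -0.77 exceeded the SD of 0.493 at that brightness. Probe set 217678_at read 1618 against 1406 (ratio 0.869), within that SD. The dimmest, 207528_s_at, read 85.8 against 107 (ratio 1.24). The median log2 ratio over the 3 was -0.20. SLC3A2, the heavy chain that brings the carrier to the membrane, read 1353 against 1188 (ratio 0.878).

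Among the genes that recycle glutathione, GSR was close to equal on both arrays and NNT gave opposite answers in different probe sets. GSR, the NADPH-dependent reductase, read 1493 for Venus and 1389 for GAS2DN in 225609_at (ratio 0.931). Its other probe set, 205770_at, read 474 against 422 (ratio 0.891), so that both pointed the same way by less than the SD among probe sets.
NNT, which makes mitochondrial NADPH at the expense of the proton gradient, was read by 4 probe sets. The brightest, 202783_at, gave 2427 for Venus and 2155 for GAS2DN (ratio 0.888), and 202784_s_at gave 814 against 948 (ratio 1.17). In 238530_at the values were 492 against 80.5 (ratio 0.164), the lowest ratio among the 22 probe sets, and in 244531_at they were 109.6 against 169.7 (ratio 1.55). Hence 2 probe sets of NNT were lower and 2 higher upon GAS2DN, with log2 ratios from -2.61 to 0.63. The GAS2DN signal behind the lowest of these was not far above the array median of 69.1.

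GLRX, the cytosolic glutaredoxin that takes glutathione off proteins, was lower in its main probe set and higher in the other. Probe set 206662_at read 1787 for Venus and 325 for GAS2DN (ratio 0.182), and 209276_s_at read 618 against 893 (ratio 1.44). All 4 signals were above the array medians, and the log2 ratios of -2.46 and 0.53 lay 2.99 apart. A distance at least as large was seen in 446 of 6422 genes with several probe sets above the filter given further on, or 6.94%, beside a median distance of 0.64. These genes were not matched for brightness. The SD among probe sets was 2.08 for the dimmest and 0.561 at the brightness of both probe sets of GLRX. The direction of GLRX on these arrays depends on the probe set that is read.

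The enzymes that spend glutathione had nearly the same signal on both arrays. GPX1, the cytosolic selenium-dependent peroxidase, read 13423 for Venus and 13429 for GAS2DN. GPX4, the selenoenzyme that reduces lipid hydroperoxides within membranes, read 13085 against 13507 (ratio 1.03). GSTP1, the pi-class transferase that couples glutathione to electrophiles, read 13766 against 13756 (ratio 0.999). Each of these 3 genes was read by 1 probe set, so that no second measure was at hand. Their log2 ratios of 0.0006, 0.046 and -0.0011 were small beside the SD of 0.417 at that brightness. They lay in the brightest of 10 groups of probe sets ordered by signal, and in the 3 brightest groups 95.1% of all probe sets were within 1.5-fold of equal.

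**Figure D2:**
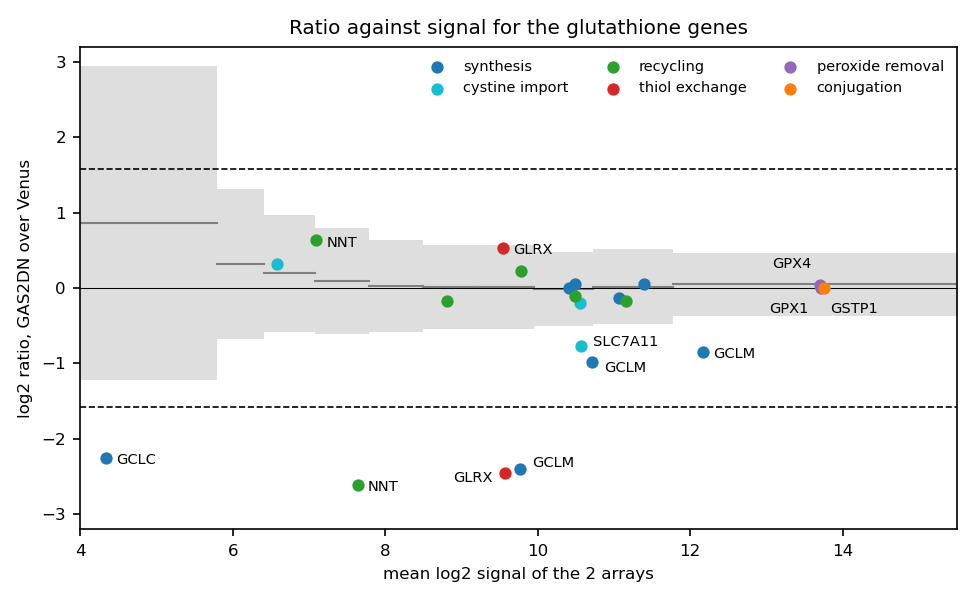
Log2 ratio of GAS2DN over Venus (vertical axis) against the mean log2 signal of the arrays (horizontal axis) for the 22 probe sets, coloured by role. Grey steps give the median of all probe sets in each of 10 groups by signal with 1 SD among probe sets of a gene on either side, and dashed lines mark 3-fold. GPX1, GPX4 and GSTP1 lie together near 0. Outside the grey band lie 7 probe sets of 5 genes, all of them below it. Among them is 1555330_at of GCLC, with both signals below the array medians. The share of all probe sets outside the band was not counted, and nothing is read from these 7.

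A probe set was eligible for the counts when the brighter of its signals reached the median of its own array, which held for 21 of the 22. A gene counted as lower or higher when an eligible probe set was over 3-fold that way and none the other way. By this rule 3 of the 10 genes, GCLM, NNT and GLRX, were lower upon GAS2DN and 0 were higher. Over all 13342 genes with an eligible probe set, 5.76% were lower and 8.36% higher. Thus 59.2% of the genes past 3-fold were higher, against 49.1% after loess or quantile scaling of the arrays. By number of eligible probe sets, 5.38% of genes with 2, 7.91% with 3 and 9.47% with 4 were lower. GLRX, GCLM and NNT had 2, 3 and 4 eligible probe sets. Counted by probe set, 3 of 21 were over 3-fold lower, against 3.36% of 24840. Requiring both signals at or above their medians left the same 3 genes, against 0.53% of 11311 genes. Since the ratios of GCLM, NNT and GLRX were known when the genes were chosen, nothing is read from these shares.
The count rests on 1 probe set in each of the 3 genes. By the median over a gene's eligible probe sets it became 0. It became 1, GLRX, when each gene was read by its main probe set alone. That is its brightest one, leaving out those ending in _x_at where there was another. For GLRX the choice was nearly a tie over both arrays on the log2 scale. Probe set 206662_at had log2 signals of 10.80 for Venus and 8.35 for GAS2DN, and 209276_s_at 9.27 and 9.80. The latter was thus the brighter one on the GAS2DN array. Read by 209276_s_at, with its ratio of 1.44, GLRX would not count as lower. Of the eligible probe sets on the lower side, the last one past 3-fold had a ratio of 0.190 and the next one 0.508, both in GCLM. Of the 21 eligible probe sets 14 lay within 1.5-fold of equal, 13 were lower and 8 higher. All probe sets of 5 genes, GSS, GSR, GPX1, GPX4 and GSTP1, were within 1.5-fold. By main probe sets the 10 genes had a median log2 ratio of -0.12 and 7 were below 0, beside a median of 0.06 over 13086 measured genes, those whose main probe set was eligible. By the same probe sets 7 of the 10 were within 1.5-fold of equal, beside 76.6% of the measured genes. Centring the arrays on the median of all probe sets lowered every log2 ratio by 0.12. All 10 were then below 0, as were 7565 of the 13086 measured genes, against 5731 before centring. By the median over eligible probe sets the 10 genes had a median log2 ratio of -0.02, with 6 below 0.

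All probe sets pointed the same way in 2 of the 7 genes that had several, GCLM and GSR. The same was not counted over all genes. The shares that follow are only for genes counted as lower, which GSR was not. Over all genes counted as lower with several eligible probe sets, every one of these was below 0 in 122 of 447 genes, or 27.3%, and the main one differed by less than 1.5-fold in 321, or 71.8%. GCLM belonged to the first kind and NNT to the second. GLRX belonged to neither, since its main probe set, chosen in a near tie, was the low one. This comparison was not matched for brightness. Of all 834 eligible probe sets over 3-fold lower, 698 lay in the dimmest of the 10 groups by signal, where none of GCLM, NNT or GLRX lay. Where a gene had 3 or more eligible probe sets, as 2985 genes did, all of them lay in 2 cases at or below -0.85, the highest log2 ratio of GCLM. These were GCLM, whose place was fixed because the bound is its own value, and STK36, a kinase gene named after its values were seen. Nothing is read from this count. At or above 0.85 there were 5 such genes, CCDC149, RHBDL3, SEMA6A, SLC2A5 and TIGD4, named in the same way.
The record on which a probe set was designed was read from its accession where the annotation gave one. Of the 22 probe sets 10 were designed on a RefSeq mRNA and 5 on an expressed sequence tag, a single read of a cDNA clone. The probe sets over 3-fold lower in GCLM and NNT were among these 5, and that of GLRX was designed on a RefSeq mRNA. The part of the record in the ratios was not tested.

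Other genes of the glutathione system were mostly close to equal on both arrays. Of 47 further genes of glutathione supply, use and breakdown, 46 had a probe set of their own and 40 were measured. Of these 26 were above 0 with a median log2 ratio of 0.10, and after centring 20 were above 0 with a median of -0.02. After loess or quantile scaling 25 were above 0. An eligible probe set was over 3-fold lower in 2 of 41 genes and over 3-fold higher in 2, against the 5.76% and 8.36% of all genes, and each of these 4 rested on a signal below its array median. Among the lower ones, the esterase ESD, which frees glutathione in formaldehyde oxidation, read 62.1 for Venus and 7.99 for GAS2DN in 240808_at but 18737 against 20400 in its main probe set (ratio 1.09). ABCC3, an exporter of conjugates, read 82.3 against 5.97 in 239217_x_at, and its other probe sets were dim. Among the higher ones, GLRX3, a glutaredoxin of iron-sulfur cluster delivery, read 7.65 against 73.1 in 207506_at but 5349 against 5507 in 209080_x_at, and its main probe set, 230095_at, was the lowest of the whole list with 116 against 62.9 (log2 ratio -0.89). GPX2, a peroxidase of the gut, read 28.0 against 91.3 in its main probe set, the highest of the list (log2 ratio 1.70).
By role, 14 of 17 glutathione transferases were above 0 with a median log2 ratio of 0.19, though 9 of 17 with a median of 0.07 after centring. After loess or quantile scaling 13 of 17 were above 0, as they were by the median over eligible probe sets. Over all 13086 measured genes 7355 were above 0, and 5521 after centring. The highest transferase was GSTM5, with 49.5 for Venus and 91.7 for GAS2DN (log2 ratio 0.89), in a family of near-identical genes whose transcripts may share probes. Its Venus signal was below the array median, and its log2 ratio was within the SD of 0.995 at that brightness. Of 8 genes of cysteine supply and glutathione breakdown, 6 were below 0 with a median of -0.14, and 6 were below 0 after each of centring, loess and quantile scaling. The lowest of these was CHAC2, which degrades glutathione in the cytosol, with 4409 for Venus and 2837 for GAS2DN (log2 ratio -0.64) in its only probe set.

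**Figure D3:**
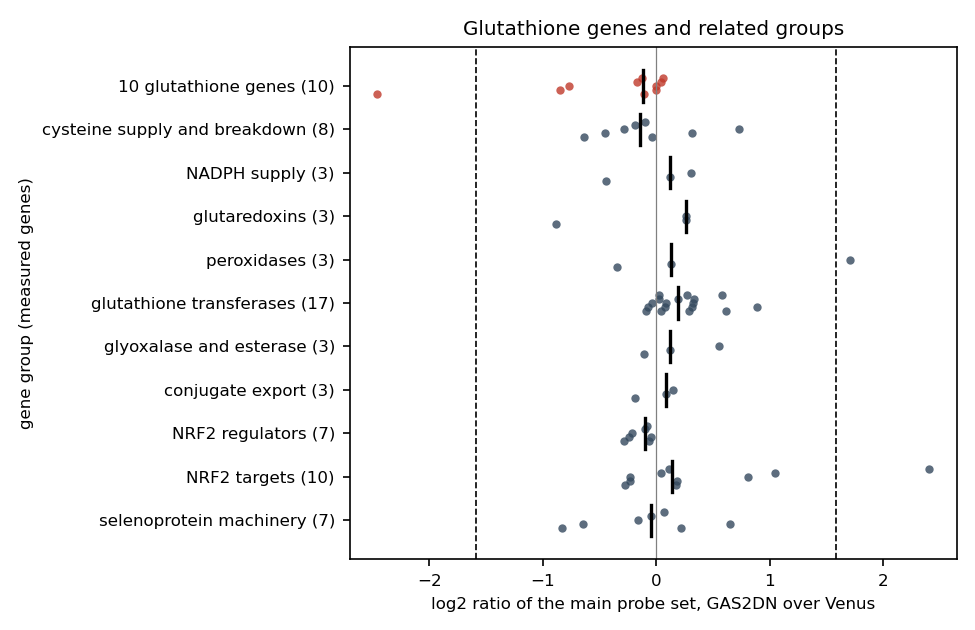
Log2 ratio of GAS2DN over Venus of the main probe set for each measured gene (points) by group, with the median of a group as a black bar, its number of genes in brackets and dashed lines at 3-fold. The 10 glutathione genes have their median at -0.12 and reach down to -2.46 in GLRX, while the 17 glutathione transferases have theirs at 0.19. The main probe set of GLRX was chosen in a near tie with one of opposite sign.

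NRF2 and the proteins that govern it had signals close to equal on both arrays. NFE2L2, which encodes NRF2, read 4502 for Venus and 4203 for GAS2DN in its main probe set (ratio 0.933). KEAP1, the adaptor that leads NRF2 to degradation, read 3848 against 3633 (ratio 0.944). The main probe sets of all 7 measured regulators lay below 0, between -0.29 and -0.04, also after centring, loess and quantile scaling, whereas 4 of 7 did by the median over eligible probe sets. The lowest was BACH1, a repressor at the same elements, with 2021 against 1658 (log2 ratio -0.29). Each of the 7 log2 ratios was smaller than the SD among probe sets at its brightness. Of all 13086 measured genes 5731 were below 0, 7565 after centring, 6058 after loess and 5910 after quantile scaling.
Of 10 measured NRF2 targets outside the 10 glutathione genes, 7 were above 0 with a median log2 ratio of 0.14, but 5 of 10 after centring or loess. The lowest target was NQO1, a quinone reductase, with 488 for Venus and 404 for GAS2DN by its main probe set (log2 ratio -0.27) and log2 ratios of -0.18 and -1.01 in the others. OSGIN1 was the only one of the 18 genes of this list with an eligible probe set that passed 3-fold, with 15.8 against 83.9 (ratio 5.30), the former below the array median, while 8.36% of all genes were past 3-fold higher and 5.76% lower. ABCB6, a porphyrin transporter, followed with 60.7 against 125 (log2 ratio 1.04).
GPX1 and GPX4 contain selenocysteine, and the genes that make and insert this amino acid were examined as well. Of 7 measured, 0 were over 3-fold in either direction, beside 8.36% of all genes higher and 5.76% lower, so that with so few genes nothing is read from this count. By main probe set 3 were above 0 and 4 below, and the median log2 ratio was -0.05. The lowest was SEPHS2, the selenophosphate synthetase, with 8827 for Venus and 4963 for GAS2DN in its only probe set, and its log2 ratio of -0.83 exceeded the SD of 0.417 at that brightness. TRNAU1AP, which binds the tRNA for selenocysteine, was at -0.64 by its main probe set but at 0.33, 0.54 and 0.32 by the others, all as log2 ratios. The highest were EEFSEC, the elongation factor for selenocysteine, with 245 against 385 (log2 ratio 0.65), and SEPSECS, the synthase, with 361 against 419 (log2 ratio 0.22).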

How the data were processed

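Expression in MEG-01 cells with Venus or GAS2DN was measured on 1 U133 Plus 2.0 array each, with RNA of 3 extracts pooled. The authors deposited log2 values of MAS5 signals (version not given in the sources used here). On the linear scale the 2% trimmed mean signal was 500.07 on each array. Detection calls were not used here. Precision is limited by having only 2 arrays. Of 54675 probe sets 41091 carried 1 gene symbol in the platform annotation. For 41037 of them the symbol was taken from RefSeq by gene identifier, and how many symbols this changed was not counted. Ratios are GAS2DN over Venus. The SD among eligible probe sets of a gene was computed in 10 groups of equal size by mean log2 signal. Outside the 10 genes, those named had an eligible probe set over 3-fold or were the 2 highest or 2 lowest of their list. NFE2L2, KEAP1 and SLC3A2 were added for their role and GAS2 as the targeted gene, and STK36, CCDC149, RHBDL3, SEMA6A, SLC2A5 and TIGD4 for probe sets that all pointed 1 way. The genes and lists were chosen with earlier results of these data known. Alternatives changed the filter, the scaling (loess with a span of 0.2 and 3 iterations among them), the step from probe sets to genes and the handling of low signals. The 3-fold calls were tested on simulated arrays, in which bright genes had all their probe sets shifted together. Calls in unchanged genes, in dim genes or resting on 1 of several probe sets were not tested there. Loess scaling was tested on an array with a constant shift. Quantile scaling was checked on the arrays themselves, and the other steps were not tested in this way. Python 3.11.15, numpy 2.4.6, pandas 2.3.3, statsmodels 0.14.6 and matplotlib 3.10.9 were used.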

Additional observations from a re-analysis of the deposited data

How the results depend on the processing

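The 3 glutathione genes over 3-fold lower became 1, GLRX, by the main probe set only and 0 by the median over eligible probe sets, by which GLRX had a log2 ratio of -0.96, SLC7A11 -0.20 and NNT 0.025, the opposite sign to its main probe set. With no filter they became 4, with GCLC added. The count of 1 by main probe sets rests on a near tie in brightness between the probe sets of GLRX. No setting gave one of the 10 over 3-fold higher. The median log2 ratio of the 10 genes, -0.12, became -0.24 after centring and -0.02 by the median over eligible probe sets. Of 69 values of single genes under the alternatives, 2 moved by more than the SD among probe sets, those of GLRX and SLC7A11 given above. Among the 3 genes counted as lower 1 value changed sign, that of NNT, from -0.17 by its main probe set, and values near 0 of the other genes also passed 0, as after centring.
Of the other glutathione genes, 2 lower and 2 higher in the report, 0 were left in either direction under 4 settings: both signals required to reach the median, the brighter one required to reach percentile 75, low signals raised to the array median, and the array median added to each signal. By the main probe set there were 0 lower and 1 higher, by the median over eligible probe sets 1 and 1, and 1 lower when probe sets named _s_at and _x_at were left out. With no filter 5 were higher, and after centring, loess or quantile scaling 1 was higher.
Over all genes 769 were lower and 1116 higher, and the alternatives ranged from 32 to 2147 and from 4 to 3758. GPX1 had no value when probe sets named _s_at were left out. No paired analysis was possible because each condition had 1 array. Signals near the array median limit the ratio of NNT in 238530_at and those of ESD, ABCC3, GLRX3 and GPX2 past 3-fold.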
